A study of Cavia porcellus with 35 samples.

Results

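The genes described here are a panel of 10 symbols that mark oligodendrocyte precursor cells and the first steps out of that state: PDGFRA, CSPG4, SOX6, CSPG5, LHFPL3, PTPRZ1, GPR17, NKX2-2, TNS3 and BCAS1. The panel was set as a list of gene names, but earlier results of these data were known when it was chosen. It was read in the prefrontal cortex of 35 juvenile guinea pigs beside MAG and MOG, genes of mature myelin. Of the 10 symbols 9 were analysed in each of the 4 count tables, out of 11362 to 11720 genes listed, and all 9 passed the filter on low counts in every table. PTPRZ1 and the myelin gene MBP were not analysed here.

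Oligodendrocyte precursors are the dividing glial cells of the brain that persist after birth and give rise to myelinating oligodendrocytes. They respond to platelet-derived growth factor through the receptor encoded by PDGFRA. As they leave the precursor state they lose that receptor, pass through a short stage marked by GPR17 and BCAS1, and then switch on the myelin genes. Glucocorticoids are known to affect this lineage in the developing brain.

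The pregnant F0 guinea pigs had received betamethasone, a synthetic glucocorticoid (sGC; "Beta" in the sample labels), or saline (Control) in late gestation. Their first-generation (F1) offspring were therefore exposed before birth. F2 and F3 animals came through the paternal line, from F1 and F2 males mated with non-experimental females. RNA was taken at postnatal day 40 from micropunches of the medial prefrontal cortex of 4 control and 4 sGC females in each of F1, F2 and F3, and of 5 control and 6 sGC F1 males, with 1 library per animal. No genotype or strain is named in the labels for any group, and each generation and sex was deposited as a table of its own.

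A library held 12819964 to 19551079 reads assigned to genes in females and 25697953 to 31763585 in males, and a panel gene had between 95 and 13422 reads in an animal. Levels are given as CPM, the reads of a gene scaled to a common library size after TMM normalization, and are comparable between animals but not between genes, because transcript length was not known. The tissue label reads prefrontal cortex, whereas the extraction note of the same samples names the paraventricular nucleus. AVP, OXT and CRH, peptide genes that define the paraventricular nucleus, were at 4.04 CPM or below in every animal where they were listed, and its transcription factor SIM1 was at 2.78 to 14.9 CPM. SLC17A7, a transporter of cortical excitatory neurons, was at 171.2 to 3575 CPM in F1 females, at 467.2 to 1503 CPM in F2 and F3 females and at 1330 to 1613 CPM in F1 males. In a punch of mixed tissue, fewer cells of a type and less RNA per cell cannot be told apart, and this holds for every result that follows.

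Levels of the panel differed between tables in their control animals, which were not compared by a test because the tables were counted separately. Mean PDGFRA in controls was 69.2 ± 15.4 CPM in F1 females, 83.7 ± 11.5 in F2 females, 99.1 ± 3.87 in F3 females (SD, n = 4 each) and 54.2 ± 5.14 in F1 males (n = 5). TNS3 was at 64.2 ± 15.2, 53.3 ± 0.667, 146.0 ± 22.5 and 53.3 ± 5.98 CPM in the same order, and BCAS1 at 271.6 ± 116.8, 134.6 ± 33.8, 457.8 ± 137.0 and 189.1 ± 53.7 CPM. MOG, which encodes a glycoprotein on the outer face of the myelin sheath, had the same order as BCAS1, with means of 441.9, 164.5, 616.5 and 234.6 CPM. One gene outside the panel shows how far such levels can be trusted. OLIG2, picked out after its values were seen, averaged 66.2 and 43.0 CPM in the F1 female and F1 male controls but 251.7 and 430.9 CPM in the F2 and F3 controls, while its relative OLIG1 stood between 216.8 and 453.1 CPM in all 4.

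**Figure D1:**
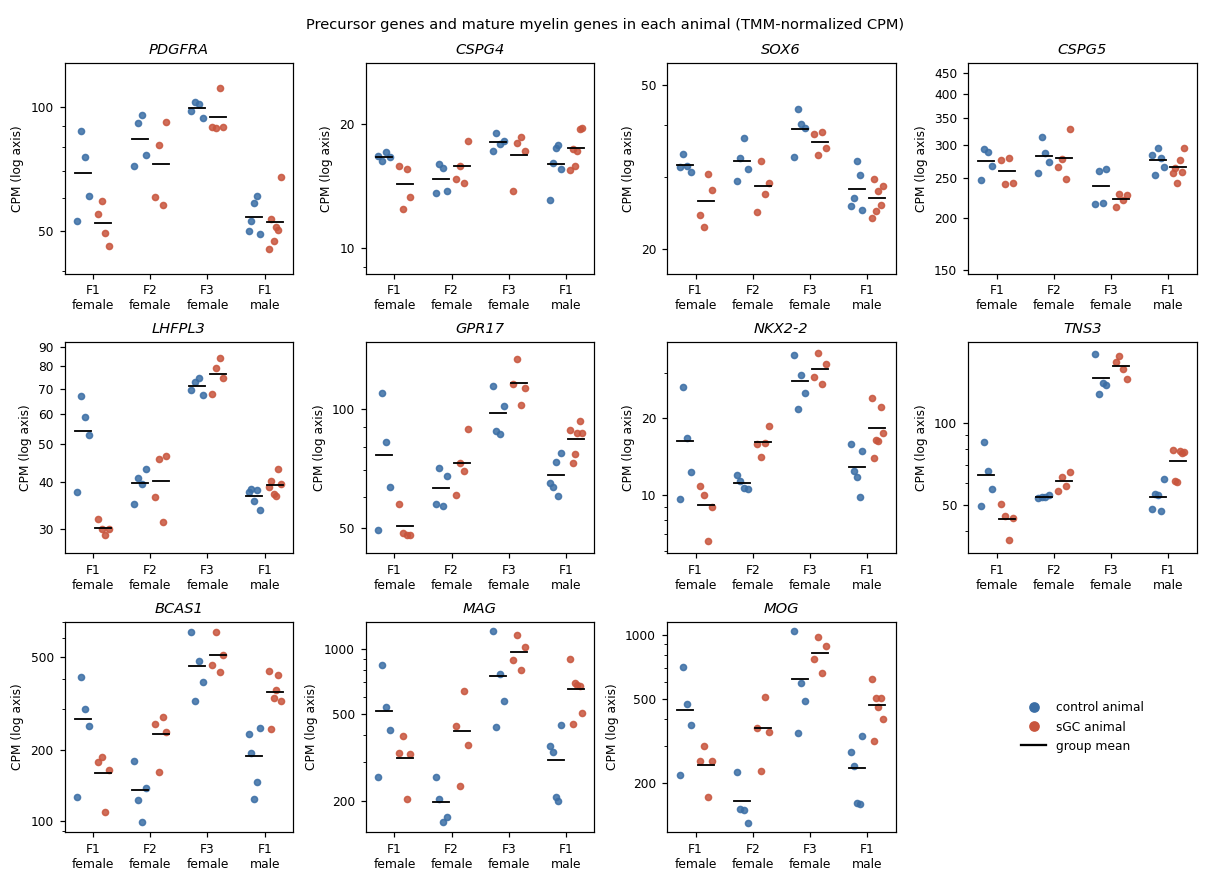
CPM of the 9 panel genes and of MAG and MOG in each animal, on a log axis, with control animals in blue, sGC animals in red and black bars at the group means. LHFPL3 in F1 females and NKX2-2 and TNS3 in F2 females show sGC animals apart from all controls, whereas PDGFRA and CSPG5 overlap in every table.

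In F1 females, every one of the 9 panel genes had a lower mean in sGC than in control animals, where 54.5% of all genes did, and LHFPL3 was the one that passed the test across all genes. LHFPL3 encodes a membrane protein that is a standard marker of precursors in single-cell atlases. Its control animals had 37.6, 67.1, 58.8 and 52.9 CPM and its sGC animals 31.9, 30.1, 28.9 and 30.1 CPM. All sGC animals lay below all controls and within a narrow range of each other. The fall was -0.84 on the log2 scale (SE 0.15; false discovery rate, FDR, 0.0113, edgeR's quasi-likelihood test with Benjamini-Hochberg adjustment over 11268 genes). That 1 of 9 members was called compares with 16.5% of all genes in this table, and with 7.33% called lower. Nothing about the panel is read from a single call, and the direction its members share rests on values that mostly did not pass.

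The panel is described here as early precursor genes and transition genes, a split that was not part of the plan and was not tested. The other early precursor genes, beside LHFPL3, were PDGFRA, CSPG4, SOX6 and CSPG5. In F1 females PDGFRA was at 53.0, 87.6, 75.5 and 60.7 CPM in controls and at 55.1, 59.1, 49.4 and 45.9 CPM in sGC animals, and the groups overlapped through control animal 1 alone. Its log2 fold change was -0.40 (SE 0.15, FDR 0.103). CSPG4, the gene of the NG2 proteoglycan that covers precursors and also the pericytes of small vessels, was at 16.3 to 17.1 CPM in controls and at 12.5 to 15.9 CPM in sGC animals. Those groups did not overlap, yet the difference of -0.22 (SE 0.093) had an FDR of 0.128. SOX6, a transcription factor that holds precursors back from maturing, also separated, with 30.8 to 34.1 CPM in controls against 22.6 to 30.4 CPM in sGC animals (log2 fold change -0.29, SE 0.096, FDR 0.0687). With LHFPL3 this makes 3 of 9 members without overlap and lower in sGC, beside 11.2% of all genes. CSPG5, which encodes a neural proteoglycan shared with astrocytes and neurons, had the smallest difference at -0.079 (SE 0.076, FDR 0.493).

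Genes of the transition towards myelination also had lower means in sGC, and none of them passed the quasi-likelihood test. Over the alternative fits named below, the FDR ran from 0.0395 to 0.144 for GPR17 and from 0.0378 to 0.121 for NKX2-2. It ran from 0.0185 to 0.0902 for TNS3 and from 0.0720 to 0.178 for BCAS1. The likelihood ratio test and DESeq2 each called 4 of 9 panel genes, all lower, beside 18.6% and 21.5% of all genes. The study, which used a likelihood ratio test, reported GPR17, NKX2-2, TNS3 and MOG as lower in F1 sGC females and higher in F1 sGC males. GPR17, a receptor that marks precursors committed to differentiate, was at 49.4, 109.6, 82.3 and 63.5 CPM in controls and at 57.4, 48.5, 48.1 and 48.1 CPM in sGC animals (log2 fold change -0.59, SE 0.21, FDR 0.0878). NKX2-2, a transcription factor that promotes differentiation, was at 9.63, 26.4, 16.8 and 12.3 CPM against 10.9, 9.99, 6.58 and 8.96 CPM. For both genes control animal 2 was the highest of the 8 animals, and control animal 1 lay within the sGC range. NKX2-2 differed by -0.83 (SE 0.30, FDR 0.0885) and TNS3, which encodes a focal adhesion protein of maturing oligodendrocytes, by -0.53 (SE 0.16, FDR 0.0559). BCAS1, a marker of newly forming myelinating cells, was at 126.0, 408.2, 299.1 and 253.2 CPM in controls and at 177.7, 187.1, 108.8 and 164.3 CPM in sGC animals (log2 fold change -0.77, SE 0.32, FDR 0.123). In all, 8 of 9 members had an unadjusted p under 0.05, against 34.2% of all genes, and the median log2 fold change of the panel was -0.53, against -0.028 over all genes.

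The mature myelin genes of F1 females had differences of like size to those of the transition genes. MAG, a glycoprotein gene of the inner myelin membrane, differed by -0.71 (SE 0.33, FDR 0.164) and MOG by -0.85 (SE 0.32, FDR 0.0947). MOG was at 217.5, 703.2, 473.3 and 373.8 CPM in controls and at 253.5, 299.9, 171.4 and 253.2 CPM in sGC animals, so control animal 1 again fell inside the sGC range. Without that animal, 6 of the 9 panel genes passed and were lower in sGC: PDGFRA, GPR17, LHFPL3, NKX2-2, BCAS1 and TNS3. In that fit 18.7% of all genes were called, and 7.62% were called lower. Leaving out control animal 2 instead moved the panel's median to -0.36 and left LHFPL3 as the 1 panel gene called, beside 10.8% of all genes.

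Markers of other cells moved with sGC in the same F1 females, where 9.21% of all genes were called higher and 7.33% lower. The 5 pan-neuronal genes summed to 4098 to 5556 CPM in controls and 6912 to 10616 CPM in sGC animals, and 3 of the 5 were called higher, led by SNAP25. The cortical excitatory list summed to 91.5 to 204.7 CPM in controls and 173.0 to 407.2 CPM in sGC animals, with a median of 0.73 on the log2 scale. Its 4 tested genes were split in direction, 2 higher and 2 lower, so the sum and median do not stand for all of them. None was called, and 3 had an unadjusted p under 0.05 (FEZF2 FDR 0.0560, the lowest). The 5 striatal markers summed to 361.5 to 1953 CPM in controls and 144.2 to 437.6 CPM in sGC animals, with 2 of 5 called lower, led by SIX3, and none of them was at 0 in any animal. Of the astrocyte markers, 3 of 6 were called lower (led by GJA1), and of the microglial markers 3 of 4 were called lower (led by CX3CR1; list sums 216.5 to 268.5 against 163.4 to 185.1 CPM). GAD2, LUM and CDH5 were the called markers of the interneuron, fibroblast and endothelial lists, each lower, and no pericyte marker of 5 was called. What part these shifts have in the lower panel values was not tested.

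In F2 females no panel gene passed the test, against 0.278% of all genes called, although 3 of 9 had an unadjusted p under 0.05, against 16.1% of all genes. The genes nearest to the threshold were higher in sGC and are among those grouped here as the transition stage. NKX2-2 was at 11.96, 11.4, 10.7 and 10.5 CPM in controls and at 15.9, 14.1, 16.0 and 18.6 CPM in sGC animals, so that all sGC animals lay above all controls (log2 fold change 0.53, SE 0.10, FDR 0.0516). BCAS1 was at 179.6, 122.9, 98.9 and 137.1 CPM in controls and at 258.1, 160.9, 277.6 and 238.0 CPM in sGC animals (0.80, SE 0.19, FDR 0.0724). TNS3 varied little in controls, from 52.6 to 54.2 CPM, and was at 56.2 to 65.9 CPM in sGC animals, again without overlap (0.19, SE 0.065, FDR 0.192). The 2 of 9 members that separated upwards compare with 4.08% of all genes.

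The early precursor genes of the F2 females showed no such pattern. PDGFRA was at 71.7, 91.1, 95.6 and 76.4 CPM in controls and at 60.3, 80.7, 57.8 and 91.7 CPM in sGC animals, with wide overlap (log2 fold change -0.21, SE 0.15, FDR 0.533). SOX6 differed by -0.21 (SE 0.10, FDR 0.350), CSPG4 by 0.098 (SE 0.10), CSPG5 by -0.016 (SE 0.092) and LHFPL3 by 0.016 (SE 0.12). GPR17, of the transition genes, differed by 0.21 (SE 0.12, FDR 0.420). The mature genes had the largest differences of the genes followed here, 1.09 for MAG (SE 0.26, FDR 0.0723) and 1.14 for MOG (SE 0.22, FDR 0.0517), the latter from 226.4, 151.8, 149.7 and 130.3 CPM in controls to 363.6, 228.3, 506.5 and 349.3 CPM in sGC animals. The panel's median was 0.098, against 0.0076 over all genes. NKX2-2 and BCAS1 passed with the likelihood ratio test, with DESeq2, and also without control animal 1 or without sGC animal 2, fits in which 2.19% to 4.80% of all genes were called. Among the markers of other cells, DRD1 of the striatal list was called higher and none of the others was.

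In F3 females none of the 9 panel genes was called, against 1.34% of all genes, and none separated the groups, against 10.3% of all genes. Of the 9, 5 were higher and 4 lower, with a median of 0.10 against -0.0054 over all genes. GPR17 had the single unadjusted p under 0.05, where 17.3% of all genes had one, from 113.8, 87.8, 86.2 and 101.6 CPM in controls to 115.6, 133.4, 102.2 and 112.6 CPM in sGC animals (log2 fold change 0.25, SE 0.11, FDR 0.261). PDGFRA was at 97.9, 102.9, 101.4 and 94.2 CPM in controls and at 89.4, 88.8, 111.1 and 89.4 CPM in sGC animals, where 3 sGC animals lay below all controls and the fourth above them (-0.067, SE 0.077, FDR 0.715). Control animal 1 stood apart in the later genes, with MOG at 1045 CPM against 344.6 to 589.7 CPM in the other controls and BCAS1 at 639.2 against 323.6 to 480.5 CPM. MAG and MOG differed by 0.37 (SE 0.27, FDR 0.531) and 0.42 (SE 0.29, FDR 0.509), and without that animal by 0.70 and 0.80, when MOG had an FDR of 0.0430 and no panel gene passed. In the same animals 2 of 5 pan-neuronal genes, led by RBFOX3, and PVALB of the interneuron list were called higher in sGC, beside 1.07% of all genes. The pan-neuronal sum was 4400 to 6354 CPM in controls against 7545 to 8127 CPM. The relation of these markers to the panel was not tested.

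In F1 males, 3 of 9 panel genes rose in sGC animals, against 9.22% of all genes called and 5.74% called higher. All 3 are among the genes grouped here, outside the plan, as the transition stage. BCAS1 was at 233.0, 194.9, 123.9, 145.8 and 247.7 CPM in controls, while the 6 sGC animals ranged from 244.9 to 432.2 CPM with a median of 345.9. Only the lowest sGC animal fell within the control range, and the change was 0.90 on the log2 scale (SE 0.18, FDR 0.0103). TNS3 was at 48.1, 54.9, 54.0, 47.4 and 62.1 CPM in controls and from 60.6 to 79.2 CPM, median 77.6, in sGC animals (0.44, SE 0.093, FDR 0.0118). GPR17 was at 64.9, 63.4, 73.3, 60.2 and 77.3 CPM in controls and from 72.9 to 92.9 CPM, median 86.7, in sGC animals (0.31, SE 0.076, FDR 0.0237). BCAS1 and TNS3 passed whichever of the 11 animals was left out, and GPR17 in 7 of 11 such fits; it missed the threshold without control 2, control 4, sGC 1 or sGC 4, at an FDR of up to 0.0633.

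NKX2-2 in F1 males was at 15.8, 12.4, 11.8, 9.78 and 14.8 CPM in controls and from 13.97 to 23.9 CPM, median 16.9, in sGC animals. Its difference of 0.51 (SE 0.15) just missed the threshold at an FDR of 0.0512, and passed with the likelihood ratio test (0.0151) and DESeq2 (0.0125). In all, 4 of 9 members had an unadjusted p under 0.05, against 25.2% of all genes. No panel gene separated the male groups completely, against 6.26% of all genes. None of the early precursor genes passed. PDGFRA was at 49.99, 52.8, 58.5, 60.6 and 49.1 CPM in controls and from 45.3 to 67.4 CPM, median 50.7, in sGC animals (-0.049, SE 0.094, FDR 0.800). SOX6 differed by -0.073 (SE 0.081), CSPG5 by -0.053 (SE 0.054), CSPG4 by 0.13 (SE 0.089) and LHFPL3 by 0.099 (SE 0.053, FDR 0.270), and the panel's median was 0.13 against -7.3e-05 over all genes.

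The mature genes of F1 males rose by as much as BCAS1 or more. MAG went from 355.2, 334.0, 208.4, 199.4 and 444.0 CPM in controls to between 449.0 and 897.6 CPM, median 674.0, in sGC animals, without overlap (1.08, SE 0.22, FDR 0.0101). MOG went from 280.4, 240.4, 161.0, 158.9 and 332.0 CPM to between 315.8 and 620.5 CPM, median 481.3 (0.99, SE 0.21, FDR 0.0109). The pan-neuronal, astrocyte, microglial and striatal lists had 0 called genes in males with the quasi-likelihood test. Of their genes 0, 2, 0 and 0 had an unadjusted p under 0.05, beside 25.2% of all genes. GAD1 and SST of the interneuron list were called lower, beside 3.48% of all genes.

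**Figure D2:**
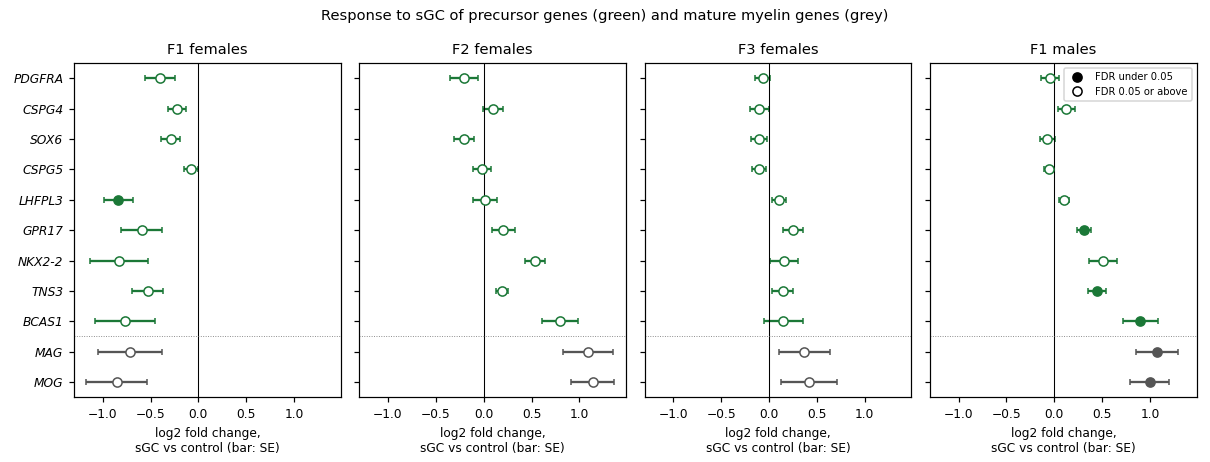
Log2 fold change between sGC and control animals for each panel gene (green) and for MAG and MOG (grey) in the 4 tables, with bars for 1 SE and filled points for an FDR under 0.05. Genes run, in an order that was not planned, from early precursor markers at the top to mature myelin genes at the bottom. In F2 females and F1 males the values move from near or below 0 for PDGFRA to about 1 for MAG and MOG. In F1 females all lie below 0.

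PDGFRA, SOX6 and CSPG5 were the 3 of 9 members whose mean difference was below 0 in all 4 tables, none of them past the threshold in any. The others changed direction between tables, and these differences in response were tested as interactions between treatment and table. The tests of F1 females against F1 males, F2 females and F3 females share the F1 females and are therefore not independent of each other. Between F1 females and F1 males, 5 of 9 members differed in response, beside 31.7% of all genes. BCAS1 differed by 1.65 (SE 0.37, FDR 0.00271), from -0.77 in females to 0.90 in males. NKX2-2 differed by 1.33 (SE 0.33, FDR 0.00552), TNS3 by 0.96 (SE 0.18, FDR 0.000938), LHFPL3 by 0.93 (SE 0.15, FDR 0.000224) and GPR17 by 0.89 (SE 0.21, FDR 0.00421). MAG and MOG differed by 1.78 and 1.84 (SE 0.41 and 0.39). PDGFRA did not pass, with a difference of 0.34 (SE 0.18, FDR 0.159), nor did CSPG4, at 0.34 (SE 0.14, FDR 0.0619), SOX6 (FDR 0.230) or CSPG5, whose responses differed by 0.017 (SE 0.092).

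Between F1 and F2 females, 4 of 9 members differed in response, beside 13.8% of all genes: BCAS1 by 1.55 (SE 0.40, FDR 0.0211), NKX2-2 by 1.36 (SE 0.33, FDR 0.0171), LHFPL3 by 0.84 (SE 0.21, FDR 0.0183) and TNS3 by 0.71 (SE 0.18, FDR 0.0196). GPR17 came near, at 0.79 (SE 0.26, FDR 0.0515), and the mature genes differed by 1.79 and 1.98. Between F1 and F3 females no member passed, beside 0.0981% of all genes, although 5 had an unadjusted p under 0.05 and LHFPL3 reached an FDR of 0.0635 with a difference of 0.92 (SE 0.17). LHFPL3 passed there with DESeq2, the likelihood ratio test and upper-quartile scaling, by which 1.87%, 1.02% and 0.161% of all genes were called. F2 and F3 females were not distinguished for any member, beside 0.0180% of all genes, and BCAS1 alone had an unadjusted p under 0.05 (0.0479, FDR 0.434).

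How far a panel gene moved apart from mature myelin was measured in each animal as the log2 ratio of its CPM to the mean of MAG and MOG. A pseudocount of 0.5 CPM was added to each value, and the group difference of the ratio was tested with a two-sided exact permutation test, adjusted over 36 tests. No ratio passed in any table after adjustment, but in F1 males 2 of 9 passed with a pseudocount of 2 CPM and 5 of 9 without control animal 5. In F1 males, all 9 ratios were lower in sGC animals, with a median difference of -0.94, and 8 had an unadjusted exact p under 0.05. All 9 share the same denominator in each animal, and the median log2 fold change of MAG and MOG was 1.04 in these males. A gene that did not change would have a ratio lower by about that much, so the 9 are not separate results. CSPG5, for example, had a log2 fold change of -0.053 and a ratio difference of -1.12. GPR17 had a ratio of -1.92 ± 0.454 in controls (SD, n = 5) and -2.68 ± 0.291 in sGC animals (n = 6), the groups did not overlap, and its exact p of 0.00216 is the smallest that 5 against 6 animals allow (adjusted p 0.0779). For PDGFRA the ratio was -2.24 ± 0.622 in controls and -3.36 ± 0.502 in sGC animals, a difference of -1.12 (SE 0.35, exact p 0.0152, adjusted p 0.0877). The differences of SOX6, CSPG5, LHFPL3 and CSPG4 lay between -1.13 and -0.94, and those of TNS3 and NKX2-2 were -0.63 and -0.58. BCAS1 kept nearly to the mature genes, with a difference of -0.15 (SE 0.086, exact p 0.136).

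In F2 females the 9 ratios were again all lower in sGC animals, by a median of -0.97. Their shared denominator was again higher, with a median log2 fold change of 1.11 for MAG and MOG. PDGFRA went from -1.08 ± 0.456 to -2.37 ± 0.793 (SD, n = 4 each; exact p 0.0571, adjusted p 0.147), and the smallest p that 4 against 4 animals allow is 0.0286. At that floor a ratio could hardly pass the adjustment over 36 tests in any female table. In F3 females the 9 ratios were lower by a median of -0.39, with no unadjusted exact p under 0.05. F1 females stood apart in sign, since 7 ratios were higher and 2 lower, with a median of 0.18 and a smallest adjusted p of 0.329. BCAS1 had the smallest difference in absolute size of the 9 in F1 females (0.015, SE 0.072), F2 females (-0.27, SE 0.16) and F1 males.

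**Figure D3:**
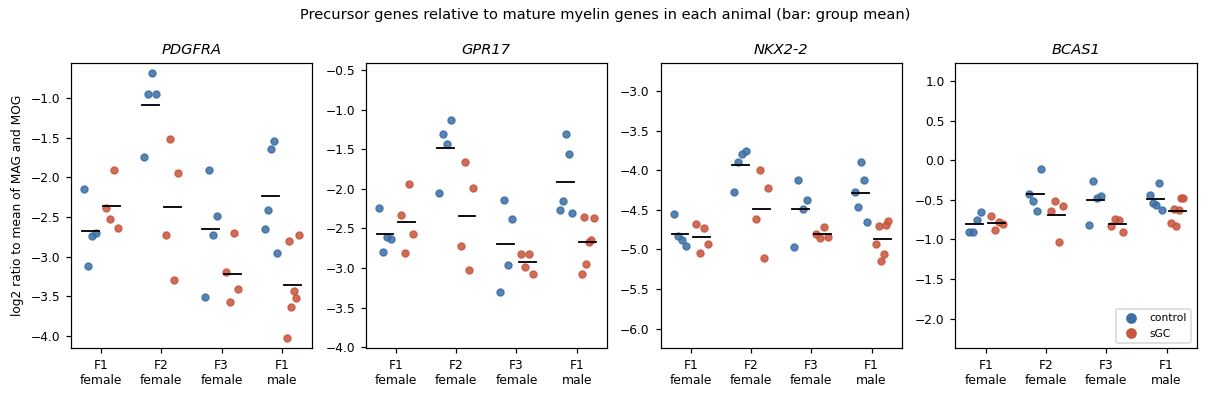
Log2 ratio of PDGFRA, GPR17, NKX2-2 and BCAS1 to the mean of MAG and MOG in each animal, with control animals in blue, sGC animals in red, black bars at the group means and axes of equal span. The male sGC animals lie below all male controls for GPR17, and the BCAS1 ratios stay within a narrow band in every group.

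Animals of the same group also differed among themselves, and the panel genes did not vary with myelin in the same way. The deviation of each animal from the mean of its group (log2 CPM) was compared with that of MOG over all 35 animals. Values of 1 animal share a library and its scaling, and p-values come from 100000 permutations within groups, adjusted over 9 genes. BCAS1 followed MOG most closely (Pearson's r 0.94, Spearman's rho 0.92, permutation p 1e-05 for each, the smallest that these permutations can give, adjusted p 4.5e-05). NKX2-2 had r 0.85 and rho 0.85 with the same p-values. Within the 4 tables taken singly, r lay between 0.83 and 0.99 for BCAS1 and between 0.60 and 0.97 for NKX2-2. Without the 2 animals farthest from the median of MOG, control animal 1 of the F1 and of the F3 females, r was 0.93 and 0.82.

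SOX6 varied the opposite way, with r -0.67 and rho -0.70 (permutation p 8e-05 and 5e-05, adjusted p 0.00024 and 0.00015), and r -0.70 without those 2 animals. It was below 0 in each table, from -0.17 in F1 females to -0.64, -0.95 and -0.95 in F2 females, F3 females and F1 males. CSPG4 was lower where MOG was higher to a lesser degree (r -0.41, rho -0.46, permutation p 0.00791 and 0.00804, adjusted p 0.0142 and 0.0145), with r from -0.62 to -0.25 within tables. TNS3 (r 0.64, rho 0.51, permutation p 0.00131 and 0.00747, adjusted p 0.00295 and 0.0145) and GPR17 (r 0.54, rho 0.45, permutation p 0.0134 and 0.0259, adjusted p 0.0202 and 0.0389) rose with MOG over all animals but not in F2 females, where r was -0.47 and -0.29. Without the 2 farthest animals their r fell to 0.52 and 0.40.

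For PDGFRA no single relation held. Over all animals r was -0.086 and rho -0.22 (permutation p 0.697 and 0.275, adjusted p 0.736 and 0.309), yet within tables r was 0.89 in F1 females, -0.58 in F2 females, -0.37 in F3 females and -0.73 in F1 males. LHFPL3 was alike in this, with r 0.093 and rho -0.093 over all animals (permutation p 0.736 and 0.649, adjusted p 0.736 and 0.649), 0.92 in F1 females and between -0.84 and -0.17 in the other 3 tables. CSPG5 did not pass (r -0.27, rho -0.33, permutation p 0.203 and 0.105, adjusted p 0.261 and 0.135). F1 females were the table in which PDGFRA and LHFPL3 had r above 0 with MOG, and r was below 0 in the other 3 tables. Both genes also had their largest difference between sGC and control in F1 females. A link between these observations was not tested. The difference in r between tables was not tested.

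**Figure D4:**
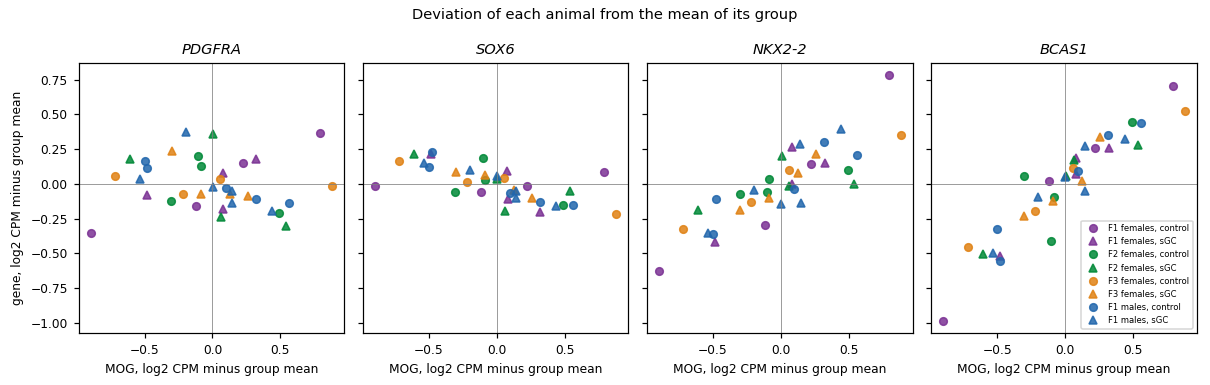
Deviation of each animal from its group mean in log2 CPM for PDGFRA, SOX6, NKX2-2 and BCAS1, against the same deviation for MOG, with colour for the table, circles for control and triangles for sGC animals. BCAS1 and NKX2-2 rise along the diagonal in every table, SOX6 declines, and PDGFRA rises in F1 females alone.

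The size of this variation differed among the panel genes. The standard deviation of the log2 CPM deviations was 0.47 for MOG, 0.41 for BCAS1, 0.31 for NKX2-2, 0.22 for GPR17, 0.18 for TNS3, 0.21 for PDGFRA, 0.17 for LHFPL3, 0.14 for SOX6, 0.14 for CSPG4 and 0.12 for CSPG5. Within a group, the highest animal exceeded the lowest by 1.48 to 3.24 times for BCAS1 and by 1.09 to 1.65 times for PDGFRA. The genes most like PDGFRA across the 35 animals, by Pearson's correlation of the deviations among 10725 genes tested in all tables, were RASSF2 (0.89), GABRG1 (0.87), FNDC3A (0.80), RAD21 (0.80) and JADE3 (0.80). Picked out after the values were seen, the gene most like CSPG4 was ABCC9 (0.83), a potassium channel regulator on the pericyte list used here, and the genes most like BCAS1 were PPP1R14A (0.97) and OPALIN (0.96), the latter a myelin protein gene. GPR17 and TNS3 were each among the 5 genes most like the other (0.84). LHFPL3 was the panel gene most like PDGFRA (0.72).

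Transcription factors of the lineage were read as a list of 12 genes, of which 11 were tested. In F1 females 3 fell and 2 rose, beside 16.5% of all genes called, with a median of -0.70. Among those that fell were TCF7L2 (from 11.9 ± 1.53 to 7.07 ± 0.263 CPM, SD, n = 4; log2 fold change -0.75, FDR 0.00625) and SOX8 (-0.70, FDR 0.0229). SOX5, a partner of SOX6, rose by 0.96 (FDR 0.0329) and ID2, an inhibitor of differentiation, by 0.60 (FDR 0.0430). Pan-neuronal genes were also higher in these sGC animals, with a list median of 0.62. Which cells carried the SOX5 and ID2 transcripts was not tested. In F1 males 6 of 11 rose, beside 5.74% of all genes, with a median of 0.44: OLIG1 (from 239.1 ± 34.1 to 365.0 ± 36.4 CPM, n = 5 and 6; 0.61, FDR 0.00346), OLIG2, SOX10, SOX8, NKX6-2 and MYRF, the factor that switches on myelin genes (0.96, FDR 0.0105). None of the 11 was called in F2 or F3 females, where 7 and 3 had an unadjusted p under 0.05, beside 16.1% and 17.3% of all genes. The medians there were 0.20 and 0.12.

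A list of 10 further precursor genes held few calls in the same tables. SEMA5A rose in F1 females (0.72, FDR 0.0388) against a list median of -0.32, and VCAN, the gene of the matrix proteoglycan versican, rose in F1 males (0.48, FDR 0.00481) against a list median of 0.11. These single calls stand beside 9.21% and 5.74% of all genes called higher. No gene of the list was called in F2 or F3 females. In F1, F2 and F3 females and F1 males, 5, 2, 1 and 4 of the 10 had an unadjusted p under 0.05. Over all genes these shares were 34.2%, 16.1%, 17.3% and 25.2%. In F1 females 8 of the 10 were lower and 2 higher, and in F1 males 8 were higher and 2 lower. Of 8 genes of newly formed oligodendrocytes, 4 rose in F1 males, beside 5.74% of all genes, with a list median of 0.43. They were SIRT2 (0.53, FDR 0.00563), ENPP6 (0.92), ITPR2 (0.33) and PLXNB3 (0.67). This list had no called gene in the female tables. In F1, F2 and F3 females 1, 5 and 0 of its genes had an unadjusted p under 0.05, beside 34.2%, 16.1% and 17.3% of all genes. Its medians there were -0.39, 0.27 and 0.12. In F1 males the medians were 0.13 for the panel, 0.11 for the further precursor genes, 0.44 for the lineage factors and 0.43 for the newly formed stage. For MAG and MOG, only 2 genes, the median was 1.04. The order of these lists was not tested.

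**Figure D5:**
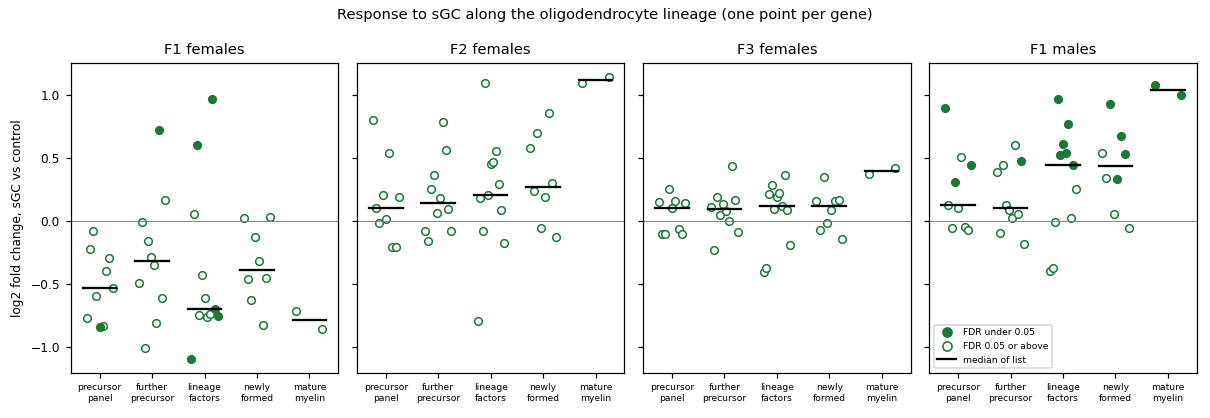
Log2 fold change between sGC and control animals for every tested gene of 5 lists along the oligodendrocyte lineage, 1 point per gene, filled at an FDR under 0.05, with black bars at the list medians. In F1 males the filled points gather in the lineage factors, the newly formed stage and the mature genes, and in F1 females all 5 medians lie below 0.

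The ligands, receptors and contact signals that act on precursors had members that differed in both directions, with medians of 0.033, -0.10, 0.049 and -0.011 in F1, F2 and F3 females and F1 males. Their summed level did not overlap between groups in F1 females (1418 to 1541 CPM in controls, 1582 to 1725 in sGC animals) or in F3 females (1417 to 1493 against 1562 to 1665 CPM). The sums of the pan-neuronal list did not overlap in these females either, with sGC animals higher. How the signal sums relate to them was not tested, and no baseline for such sums was made. Of the 12 signal genes tested in F1 females, 5 had an unadjusted p under 0.05, beside 34.2% of all genes. In F1 females CNTN1, an axonal adhesion molecule that also binds precursor receptors, rose from 410.1 ± 18.4 to 523.9 ± 20.3 CPM (0.35, FDR 0.00605). NOTCH1, a receptor that delays differentiation, fell in the same animals (-0.53, FDR 0.0131), out of 12 genes tested. Those calls stand beside 16.5% of all genes called in F1 females, and nothing about the list is read from them. In F1 males NOTCH1 rose instead (0.32, FDR 0.0189). FGFR2, a fibroblast growth factor receptor of maturing oligodendrocytes (0.41, FDR 0.00303), and the growth factor gene PTN (0.30, FDR 0.00578) rose too. These were the called genes of 13 tested in males, beside 5.74% of all genes called higher. LINGO1, an inhibitor of differentiation that neurons also express, rose in F3 females (0.37, FDR 0.0498). It was the called gene of 12 tested there, beside 1.07% of all genes called higher. F2 females had no called gene of the 13 tested, with 3 at an unadjusted p under 0.05, beside 16.1% of all genes. Of the cell cycle genes, PCNA (-0.37, FDR 0.0196) and CCND1 (-0.51, FDR 0.0330) fell in F1 females out of 5 tested, beside 7.33% of all genes called lower. None of the 6, 8 and 7 tested in F2 females, F3 females and F1 males was called, and none had an unadjusted p under 0.05.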

How the data were processed

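Counts per gene symbol for the 35 libraries were deposited by the authors as whole numbers without normalization, in 1 table for each generation and sex. The submitters' processing notes name TopHat2 and edgeR. The read counter, the genome build, the annotation and whether strand was used are not given in the sources used here, so reads shared by overlapping genes or paralogs cannot be separated. The tables also hold the authors' own comparison (log2 fold changes, log CPM, a likelihood ratio statistic, p-values and FDR), which was not used. Libraries were made with a poly(A) kit, and for females 1 animal per litter had been taken. No 2 libraries of a group agreed within sampling noise (chi-square per degree of freedom 2.80 or more).

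Each table was fitted whole in R 4.3.3 with edgeR 4.0.16: filterByExpr (minimum count 10, minimum total count 15), TMM scaling, the quasi-likelihood test of sGC against control, and Benjamini-Hochberg adjustment over all genes tested, with 0.05 as the threshold. The study's likelihood ratio test was kept as an alternative, since it takes the dispersion as known. Differences in response were tested as interactions for 4 pairs of tables. Ratios to mature myelin used log2(CPM + 0.5) and exact permutation tests (Python 3.11.15, SciPy 1.17.1). They had been planned with MBP and 10 members, and were made with MAG and MOG for 9. Permuted correlations with MOG were added after the design was set. Methods were tested on simulated data.

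The members and all 17 gene lists were chosen with earlier results of these data known. All members, MAG and MOG are named, and of every other list, in each table, the gene with the smallest p if its FDR passed, and the 5 genes most like PDGFRA; further called genes of a list were named to complete short counts. Alternatives were the likelihood ratio test, DESeq2 1.42.0, upper-quartile scaling, no filter on low counts, a replicate block, a pseudocount of 2 CPM and leaving out each animal. No sequences or gene positions were analysed here. Not every gene of the lists is reported by name.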

Additional observations from a re-analysis of the deposited data

Results flagged for a closer look

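Of 88 sets of 1 gene in 1 group, 3 had an animal far from the rest of its group by Dixon's criterion, which chance alone meets in about 1 of 20 sets. GPR17 in sGC animal 1 of the F1 females was at 57.4 CPM with its nearest neighbour at 48.5. PDGFRA in sGC animal 6 of the F1 males was at 67.4 CPM with the next at 53.3, and PDGFRA in sGC animal 3 of the F3 females was at 111.1 CPM with the next at 89.4.

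The response to sGC differed between F1 females and F1 males, by the interaction test, for GPR17 (0.89), LHFPL3 (0.93), NKX2-2 (1.33), BCAS1 (1.65), TNS3 (0.96), MAG (1.78) and MOG (1.84), each as the male minus the female log2 fold change. Between F1 and F2 females it differed for LHFPL3 (0.84), NKX2-2 (1.36), BCAS1 (1.55), TNS3 (0.71), MAG (1.79) and MOG (1.98), as F2 minus F1. Both sets rest on the same F1 females.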

How the results depend on the processing

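The number of panel genes passing in F1 females was 1, and became 4 with the likelihood ratio test, 4 with DESeq2 and 2 with upper-quartile scaling (18.6%, 21.5% and 16.8% of all genes called, and 9.14%, 8.90% and 9.66% called lower), and 1 to 6 on leaving out an animal, with 6 without control 1. In F2 females it was 0, and became 2 with the likelihood ratio test and 2 with DESeq2 (4.80% and 4.25% of all genes), and 0 to 2 on leaving out an animal, with 2 without control 1 or without sGC 2 (2.19% and 4.36% of all genes). In F3 females it was 0 throughout, and the panel's median lay between 0.016 and 0.12 on leaving out an animal. In F1 males it was 3, and 2 to 4 on leaving out an animal. For the interaction of F1 and F3 females the count of 0 became 1 with each of the likelihood ratio test, DESeq2 and upper-quartile scaling, and 2 without F1 control 1 (0.865% of all genes). Interaction counts otherwise lay between 5 and 6 for F1 females against males and between 4 and 5 for F1 against F2 females. Passing ratios in F1 males were 0, but 2 with a pseudocount of 2 CPM and 5 without control 5, with a range of 0 to 5. In F1, F2 and F3 females 0 ratios passed, also with that pseudocount and whichever animal was left out. This says little, since the smallest exact p that 4 against 4 animals allow is 0.0286. After adjustment over 36 tests, such a p could pass only if most of the tests were as small.

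Signs that turned on leaving out an animal belonged to values near 0. They ranged from -0.066 to 0.11 for LHFPL3 and from -0.10 to 0.037 for CSPG5 in F2 females. For the interactions they ranged from -0.017 to 0.060 for CSPG5 between F1 females and males (-0.015 with the replicate block), from -0.0085 to 0.15 for SOX6 and -0.029 to 0.11 for CSPG5 between F1 and F2 females, from -0.099 to 0.016 for CSPG5 between F1 and F3 females, and from -0.036 to 0.15 for GPR17, -0.0085 to 0.17 for LHFPL3 and -0.10 to 0.086 for TNS3 between F2 and F3 females. The cause was not tested.

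Replicate numbers were not shown to pair animals, since the correlations of same-numbered animals ran from -0.33 to 0.36. With a replicate block the panel counts were 1, 0, 0 and 4 in F1, F2 and F3 females and F1 males. With 4 animals a group, small changes of early precursor genes could be missed.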
